A study of Mus musculus with 56 samples.

Results

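The genes described here are the 6 mouse genes for subunits of the NMDA receptor that have a row in the expression table, Grin1, Grin2a, Grin2b, Grin2c, Grin2d and Grin3a, among 18088 genes in all. They were chosen by name as a gene family, with no threshold on their values, although the family was proposed after other results of these data were known. A further subunit gene, Grin3b, was not analysed here. All 6 passed the filter on low values, a value of at least 10 in at least 4 libraries, which 17778 genes passed.

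The study sequenced prefrontal cortex RNA of 56 C57BL/6J mice, taken on postnatal day 25. The mice were heterozygous for Scn2a (HT, 29 mice), a gene for a neuronal voltage-gated sodium channel, or wild type (WT, 27 mice). They had taken in vehicle, the serotonin reuptake blocker fluoxetine or the mood stabiliser lithium with the milk of their mothers from postnatal day 3 to day 24. Counting both sexes, there were 9 WT and 10 HT mice on vehicle, 9 WT and 9 HT mice on fluoxetine, and 9 WT and 10 HT mice on lithium. Split by sex, each of the 12 groups held 4 or 5 mice. All groups shared the strain, the age and the route of treatment, and the labels do not say how the Scn2a allele was made. Neither dam nor litter is named in the labels. The drugs reached whole litters through the dam, so where littermates stand in a group as separate samples, p-values of drug effects are too small.

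NMDA receptors are ion channels that open when glutamate and a co-agonist, glycine or D-serine, are bound while the membrane is depolarised, and they let calcium into the cell. Each receptor is a tetramer that holds the obligatory subunit GluN1, encoded by Grin1, together with GluN2 subunits from Grin2a to Grin2d or GluN3 subunits, and the partners set how long the channel stays open and how much calcium it passes. In the cortex after birth the share of GluN2A grows relative to GluN2B, and GluN2D and GluN3A are most abundant early in life.

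The common descent of these genes shows in their coding sequences, given here for Grin1, for Grin2a and for both genes whose level changed, Grin2c and Grin3a. The stretch shown is a window of 45 bases of Grin2a with its best match in each of the others. It was picked so that the least alike of them matched Grin2a as closely as possible. The window lies in the part that codes for the third membrane-spanning segment, which lines the channel. The sequences are from GENCODE vM21 transcripts on the build GRCm38, written 5′ to 3′ along the transcript, with capitals at the 24 bases that these 4 genes share.
Grin1: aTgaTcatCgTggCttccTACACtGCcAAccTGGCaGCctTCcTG
Grin2a: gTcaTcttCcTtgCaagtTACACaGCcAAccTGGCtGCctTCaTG
Grin2c: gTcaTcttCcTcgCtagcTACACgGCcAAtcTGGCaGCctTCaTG
Grin3a: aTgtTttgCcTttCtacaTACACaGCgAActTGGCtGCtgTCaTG
The window starts at base 1984 of the Grin1 coding sequence, 1915 of Grin2a, 1909 of Grin2c and 2260 of Grin3a. Against Grin2a, 39 of the 45 bases were the same in Grin2c, 33 in Grin1 and 32 in Grin3a. Even so, none of the 6 members shared more than 6 words of 31 letters with the other members over its transcripts. Words shared with genes outside the family made up 12.1% of those of Grin2a, 0.293% of Grin1, 0.217% of Grin2b and 0.0453% of Grin2d, and none of those of Grin2c or Grin3a. Reads from such shared words may have been assigned to either gene.

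All 6 genes lie on the minus strand in the build GRCm38. Grin1 (ENSMUSG00000026959) is at chr2:25291181-25319187, Grin2a (ENSMUSG00000059003) at chr16:9567898-9995560 and Grin2b (ENSMUSG00000030209) at chr6:135713233-136173511. Grin2c (ENSMUSG00000020734) is at chr11:115249169-115267243, Grin2d (ENSMUSG00000002771) at chr7:45831883-45878378 and Grin3a (ENSMUSG00000039579) at chr4:49661611-49845744. Grin2d overlaps Kdelr1 on the opposite strand, whose mean value was 1508, and the antisense gene Gm45441 at 190. Grin3a holds Ppp3r2 on its own strand, at a mean value of 7.48. The transcripts of Grin3a shared no word of 31 letters with Ppp3r2 or any other gene outside the family. Reads in the overlaps of Grin2d may have been counted for either gene, although the libraries were stranded.

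The recovered depth was 24253955 to 36385936 reads per library, with a median of 27903312 reads. The targeted gene followed the labels. Scn2a was 7583 to 9619 size-factor-scaled reads in the 29 HT libraries and 9727 to 13381 in the 27 WT libraries, with no overlap, a log2 difference of −0.53 (limma adjusted p = 3.7e-25). All 8 markers of cortical excitatory neurons were present in every library, at a summed value of 58027 to 77474. In 18 of the 56 libraries the mean log2 level of a list of 11 olfactory bulb and migrating neuroblast genes or of 12 striatal genes lay more than 1 above the median library. These 18 libraries fell in 10 of the 12 groups, and each member's call that ends without them is given beside its result.

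A library's value for a gene is its read count divided by the size factor of that library, called here a size-factor-scaled read. These values rank genes by level only after division by length. Per kilobase of merged exons, the level was highest for Grin1, at a mean of 1807 scaled reads per kb over the 56 libraries. It was 856 for Grin2b, 372 for Grin2a, 344 for Grin2c, 143 for Grin3a and 85.3 for Grin2d. This order held in 56 of 56 libraries for each neighbouring pair but Grin2a and Grin2c. Grin2a was the higher in 41 of 56, at a ratio of 1.09 ± 0.162 (SD, n = 56), so the order of that pair varied between libraries. With the longest transcript as the length, the means were 4099, 884, 456, 354, 235 and 105 in the same order, and Grin2a was above Grin2c in 53 of 56 libraries. Grin1 made up 50.1% ± 1.92 (SD, n = 56) of the summed level per kb of merged exons, Grin2b 23.7% ± 1.78, Grin2a 10.3% ± 0.790, Grin2c 9.54% ± 0.999, Grin3a 3.98% ± 0.303 and Grin2d 2.37% ± 0.273. With the longest transcript the share of Grin1 was 66.9% ± 1.66, so its size depends on the length used.

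**Figure D1:**
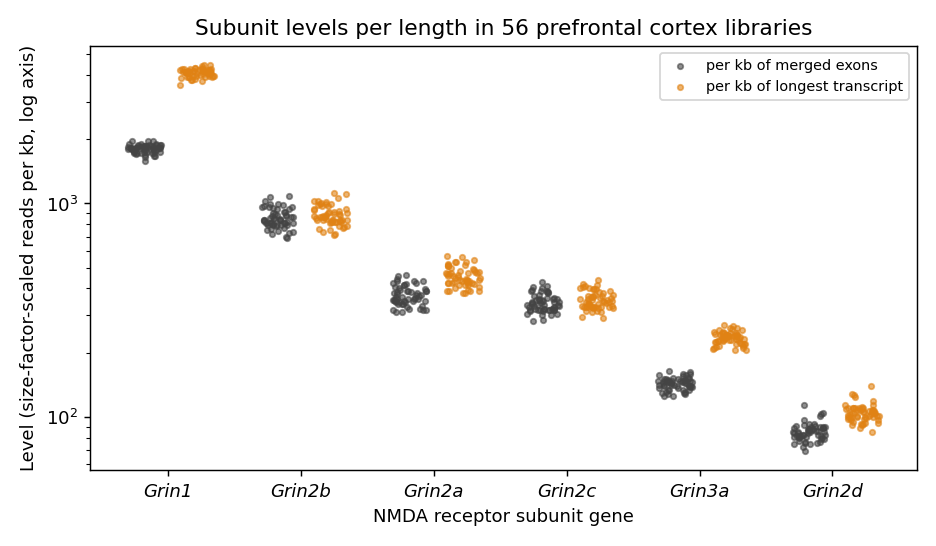
Level of each subunit gene in size-factor-scaled reads per kb (log axis), with a point for each of the 56 libraries, per kb of merged exons (grey) and of the longest transcript (orange). The order from Grin1 to Grin2d is the same by both lengths, and the clouds of Grin2a and Grin2c overlap by either.

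The spread between libraries also set the members apart. The coefficient of variation over all 56 libraries was 4.33% for Grin1 and 6.51% for Grin3a, and it was 9.46% for Grin2d, 9.55% for Grin2c, 10.6% for Grin2a and 10.7% for Grin2b. Grin1 was thus the steadiest of the 6 and the GluN2 genes varied most, a description that includes the differences between groups.

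**Figure D2:**
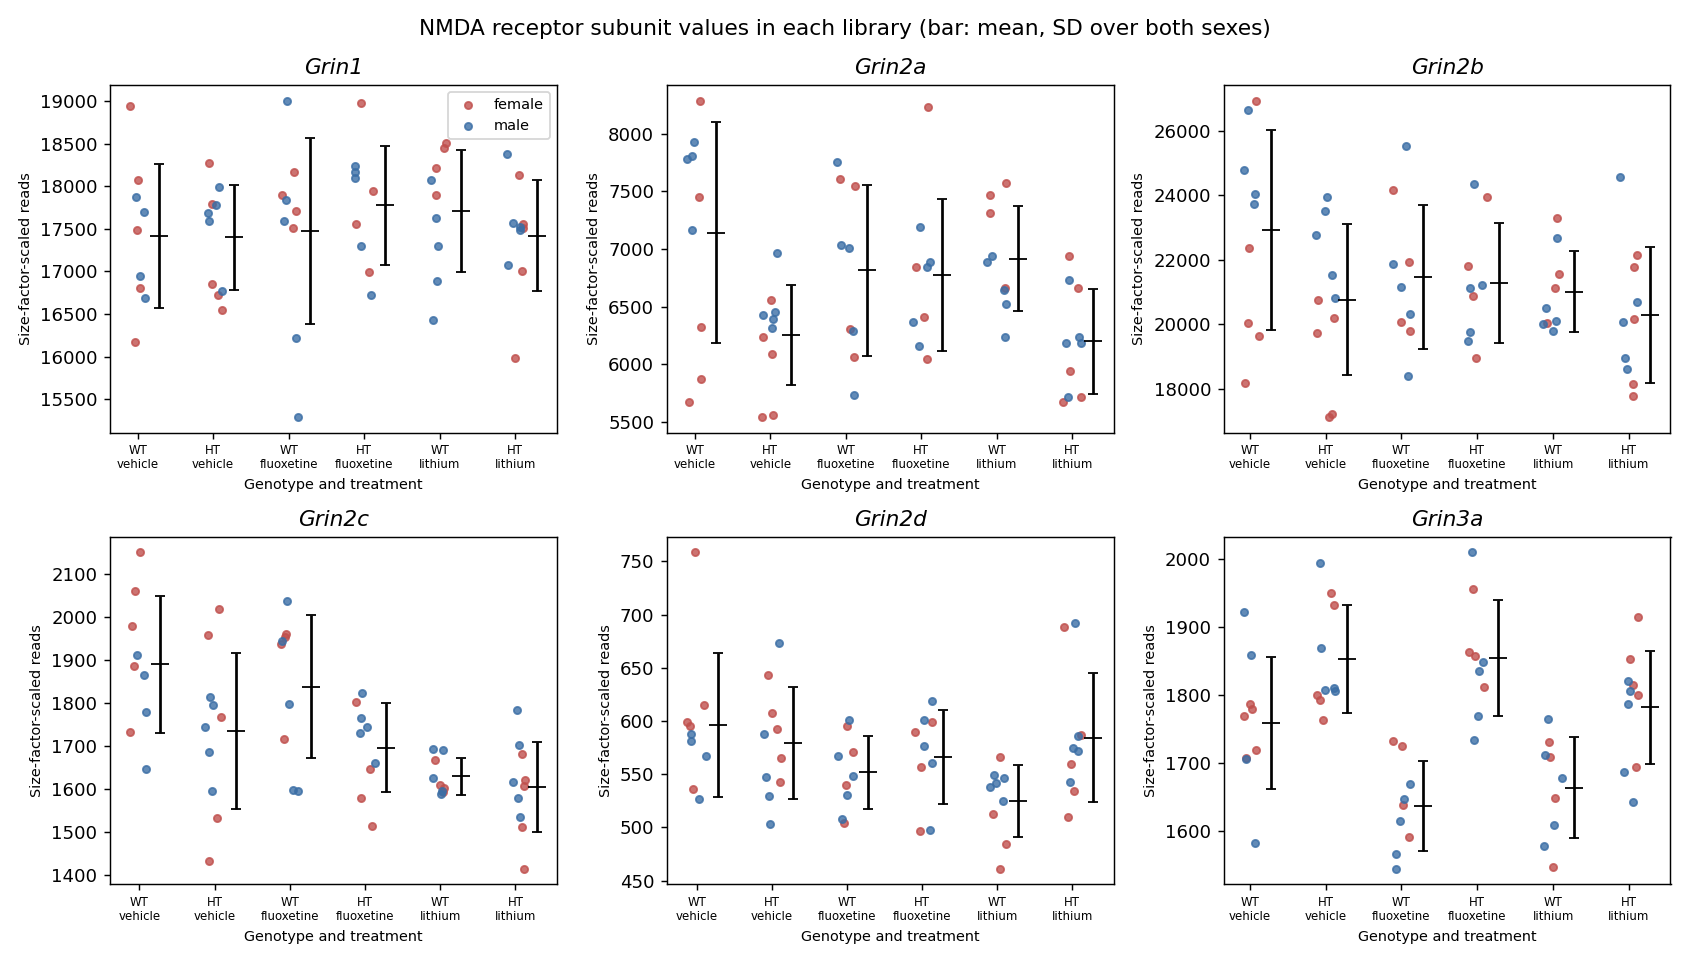
Size-factor-scaled reads of each subunit gene in each library (points, red for female and blue for male) for the 6 groups of genotype and treatment, with the mean and SD over both sexes as bars; each axis starts above 0. Grin2c has its lowest means in the lithium groups and its narrowest range in WT mice on lithium, and Grin3a is higher in HT than in WT groups under each treatment.

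Grin1, whose product every NMDA receptor needs, was not called in any comparison. In WT mice its lowest, median and highest values were 16178, 17489 and 18938 scaled reads on vehicle, 15295, 17706 and 19002 on fluoxetine, and 16426, 17900 and 18507 on lithium. In HT mice they were 16550, 17635 and 18272 on vehicle, 16721, 17939 and 18974 on fluoxetine, and 15983, 17514 and 18375 on lithium. All 6 groups overlapped widely. The log2 difference between HT and WT averaged over treatments was 0.00, with a 95% interval from −0.04 to 0.03. The interval for lithium averaged over genotypes was −0.03 to 0.06 and that for fluoxetine −0.02 to 0.06. Differences of a few percent in either direction lie within these intervals.

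Grin2a encodes GluN2A, the subunit that gains share as the cortex matures, and Grin2b encodes GluN2B, its counterpart of early life. On vehicle, Grin2a was 5671, 7454 and 8287 scaled reads (lowest, median, highest) in WT mice and 5544, 6355 and 6964 in HT mice. All 10 HT libraries lay below the WT mean, and the WT range was the wider and held nearly all of theirs. The log2 difference was −0.19 ± 0.059 (SE) and was not called (limma adjusted p = 0.25). Among vehicle males alone the HT libraries (6316 to 6964) and the WT libraries (7166 to 7925) did not overlap, a gap that 2.57% of all genes showed there. On lithium Grin2a was 6237, 6892 and 7575 in WT and 5671, 6186 and 6939 in HT mice, a log2 difference of −0.17 (limma adjusted p = 0.34, 9 of 10 HT libraries below the WT mean). On fluoxetine it was 5731, 7011 and 7755 in WT and 6048, 6842 and 8230 in HT mice, and the groups lay on top of each other, at a log2 difference of −0.01 (limma adjusted p = 1.0). Averaged over treatments the log2 difference was −0.12, with 26 of 29 HT libraries below the WT mean, and it did not pass the test (limma adjusted p = 0.16).

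For Grin2b the sign was the same and no difference passed the test. On vehicle the values were 18189, 23726 and 26938 in WT and 17126, 20785 and 23945 in HT mice. Its log2 difference on vehicle was −0.15 (limma adjusted p = 0.38), with 8 of 10 HT libraries below the WT mean and overlapping groups. On fluoxetine it was 18387, 21152 and 25540 in WT and 18968, 21114 and 24359 in HT mice, and on lithium 19801, 20496 and 23302 in WT and 17782, 20111 and 24581 in HT mice. In all 6 strata of treatment and sex the mean log2 value was lower in HT than in WT mice for both Grin2a (differences of −0.24 to −0.0021) and Grin2b (−0.16 to −0.0068). In females on fluoxetine the unlogged Grin2a means were level, at 6882 in HT and 6881 in WT mice. Averaged over treatments, Grin2b differed by −0.07 (limma adjusted p = 0.60). The ratio of the Grin2b value to the Grin2a value was 3.21 ± 0.17 (SD, n = 9) in WT mice on vehicle, 3.15 ± 0.14 (n = 9) on fluoxetine and 3.04 ± 0.17 (n = 9) on lithium. In HT mice it was 3.31 ± 0.21 (n = 10), 3.15 ± 0.23 (n = 9) and 3.27 ± 0.24 (n = 10). The ranges of the ratio overlapped between all of these groups.

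With lithium neither Grin2a nor Grin2b was called. In WT mice the log2 change was −0.04 for Grin2a (limma adjusted p = 0.74) and −0.12 for Grin2b (limma adjusted p = 0.24, 8 of 9 lithium libraries below the vehicle mean). In HT mice it was −0.01 (limma adjusted p = 0.92) and −0.03 (0.80). In WT males Grin2a was 6237 to 6941 on lithium and 7166 to 7925 on vehicle, a log2 change of −0.21 (limma adjusted p = 0.31), and Grin2b was 19801 to 22681 on lithium and 23726 to 26643 on vehicle, a change of −0.27 (limma adjusted p = 0.19). Neither gene's groups overlapped there, as was so for 5.65% of all genes, and the 4 WT vehicle males are the same libraries as in the gap between genotypes above. In WT females the changes were 0.12 (limma adjusted p = 0.46) and 0.02 (0.95), with overlapping groups. The effect in females minus that in males was 0.33 for Grin2a, with a 95% interval from 0.09 to 0.57, and 0.28 for Grin2b, with an interval from 0.03 to 0.54, and neither was called (limma adjusted p = 0.74 for each).

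Grin2c was lower in mice given lithium. It encodes GluN2C, known for weak magnesium block, which is abundant in the cerebellum and in forebrain is found also in astrocytes. In WT mice it was 1647, 1885 and 2150 scaled reads (lowest, median, highest) on vehicle and 1589, 1610 and 1693 on lithium. The lithium libraries were packed at the bottom of the vehicle range, which they overlapped at its lower end, and 9 of 9 lay below the vehicle mean. The log2 change was −0.20 ± 0.051 (SE), 13.2% below vehicle (limma adjusted p = 0.014). Grin2c was 1 of 6 members called in that comparison, in which 5.71% of all genes tested were called in either direction and 1.88% as lower. In HT mice it was 1434, 1757 and 2019 on vehicle and 1416, 1612 and 1784 on lithium. These ranges overlapped over most of their length, and the log2 change of −0.11 ± 0.048 was not called (limma adjusted p = 0.16, 9 of 10 lithium libraries below the vehicle mean). In HT mice none of the 6 members was called with lithium by limma, edgeR or DESeq2, 1 had an unadjusted p below 0.05, as did 23.3% of all genes, and 8.77% of genes were called.

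Averaged over genotypes, Grin2c fell by 0.16 ± 0.035 on the log2 scale with lithium (limma adjusted p = 0.0015), 10.2% below vehicle. All 19 lithium libraries lay below the vehicle median of 1796. Grin2c and Grin3a were the 2 members called in that comparison, in which 16.2% of all genes were called and 6.85% as lower. The median change of the 6 members was −0.07, and that of all genes 0.00032. The change had the same sign in each of the 4 strata of genotype and sex, from −0.27 to −0.07, and in WT females the lithium libraries (1594 to 1667) and the vehicle libraries (1733 to 2150) did not overlap. Such a gap between WT females on lithium and on vehicle was found for 7.03% of genes. The test of whether the lithium effect differed between genotypes gave a log2 difference of 0.10, with a 95% interval from −0.04 to 0.24 (limma adjusted p = 0.62), so no difference between HT and WT mice was shown. The averaged call held in each of 11 alternative analyses and without any 1 of the 56 libraries. Without the 18 libraries rich in olfactory or striatal genes it was −0.14 (limma adjusted p = 0.022), while the call in WT mice was lost, at −0.18 (limma adjusted p = 0.060).

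Grin2c was also lower with lithium than with fluoxetine. On fluoxetine it was 1595, 1936 and 2036 in WT and 1515, 1731 and 1823 in HT mice, so the fluoxetine libraries spread over much of the vehicle range. Averaged over genotypes, the lithium level was lower than the fluoxetine level by 0.12 ± 0.036 on the log2 scale (limma adjusted p = 0.026), and 18 of 19 lithium libraries lay below the fluoxetine mean. This was 1 of 6 members, against 6.5% of all genes, and the call was lost without HT fluoxetine female 3 (limma adjusted p = 0.054) and without the 18 libraries (limma adjusted p = 0.0535). Fluoxetine and lithium were compared with the same vehicle libraries, and the fluoxetine change of Grin2c against vehicle was −0.03 (limma adjusted p = 0.76).

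Markers of astrocytes were read beside this gene. With lithium, averaged over genotypes, 3 of 10 astrocyte markers had a positive change, their median was −0.05, and 1 was called, as higher (Gjb6, a gap junction gene, at 0.17, limma adjusted p = 0.022). All 10 were present, and their summed value ran from 150640 to 173822 in WT mice on lithium and from 152222 to 180503 on vehicle. In HT mice it was 144036 to 158600 on lithium and 132782 to 184911 on vehicle. Over the 56 libraries, the deviation of Grin2c from its group mean followed that of the astrocyte list at r = 0.67, a description across libraries that share their input RNA. In the same comparison 3 of 7 microglial markers were called lower (median −0.09), and endothelial and mural markers gave 1 higher and 2 lower of 6 (median −0.11). None of the 11 olfactory genes had a positive change (median −0.21), and 1 was called lower, Cd24a (−0.18, limma adjusted p = 0.042). Of 8 cortical excitatory markers 5 had a positive change (median 0.05) and 1 was called higher, the transcription factor gene Tbr1 (0.11, limma adjusted p = 0.015). The deviation of Grin2c ran against that of the excitatory list at r = −0.45 and went with that of the olfactory list at r = 0.20. Of the 9 markers of all lists called in this comparison, 6 were still called without the 18 libraries. Among them were Gjb6 (0.19, limma adjusted p = 0.029), Cd24a and Tbr1. With calls gained, 8 markers were called without the 18. Those gained were the astrocyte marker Aldoc, as higher (0.11, limma adjusted p = 0.017, against 0.08 and 0.057 with all libraries), and the striatal marker Ppp1r1b, also higher (0.27, limma adjusted p = 0.023, against 0.22 and 0.38). The part of these cell types and regions in the Grin2c result was not tested, and in whole tissue fewer cells of a type and less RNA per cell cannot be told apart.

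Grin2d encodes GluN2D, found in cortical interneurons and in the young brain, and had the lowest level of the 6 per kb. In WT mice it was 526, 588 and 758 scaled reads on vehicle and 461, 538 and 566 on lithium. All 9 lithium libraries lay below the vehicle mean and the ranges overlapped, and the log2 change of −0.18 ± 0.058 (SE) was not called (limma adjusted p = 0.057). On the recovered reads it was called, at an adjusted p of 0.049 with edgeR and 0.038 with DESeq2, so this value lies at the threshold. In HT mice it was 503, 576 and 673 on vehicle and 509, 573 and 692 on lithium, a log2 change of 0.01 (limma adjusted p = 0.93). The difference between these effects was 0.19, with a 95% interval from 0.03 to 0.35, and did not pass the test (limma adjusted p = 0.40). On fluoxetine Grin2d was 505, 549 and 601 in WT mice and 496, 577 and 618 in HT mice. Grin2d moved with olfactory genes between libraries (r = 0.58 of its deviation with that of the olfactory list, 56 libraries), and in WT mice all 11 olfactory genes had a negative change with lithium, at a median of −0.55, with none called. The deviation of Grin2d also ran against that of the cortical excitatory list at r = −0.51, and with the interneuron list it gave r = 0.08. With the olfactory and striatal scores as covariates the WT change was −0.12 (limma adjusted p = 0.13). The part of these cell types and regions in the Grin2d values was not tested.

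Grin3a was higher in HT mice. It encodes GluN3A, which lowers the calcium permeability of receptors that contain it. On fluoxetine it was 1545, 1639 and 1733 scaled reads (lowest, median, highest) in WT mice and 1734, 1848 and 2010 in HT mice. The highest WT library and the lowest HT library differed by about 1 scaled read, so the groups did not overlap but touched. Groups without overlap over both sexes were found for 2 of all 17778 genes, or 0.0112%. The log2 difference was 0.18 ± 0.033 (SE), a level 13.1% higher in HT mice in 9 of 9 libraries (limma adjusted p = 0.016). Of all 17778 genes, 0.0112% were called in this comparison, 2 genes in all, and by p Grin3a came after Scn2a. Groups that do not overlap over both sexes cannot overlap within either, so the split by sex adds no support to the gap. Within females 2% of all genes had groups that did not overlap, and within males 0.804%. In females the HT libraries were 1811 to 1956 and the WT libraries 1592 to 1733, and in males they were 1734 to 2010 and 1545 to 1670.

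Under the other treatments Grin3a had the same direction and did not pass the test. On vehicle it was 1582, 1769 and 1923 in WT and 1763, 1809 and 1994 in HT mice, and 10 of 10 HT libraries lay above the WT mean at a log2 difference of 0.08 (limma adjusted p = 0.40). On lithium it was 1546, 1678 and 1765 in WT and 1643, 1803 and 1915 in HT mice, and 9 of 10 HT libraries lay above the WT mean at a log2 difference of 0.10 (limma adjusted p = 0.30). Among the 6 members, none was called by limma, edgeR or DESeq2 under vehicle, where 4 of 6 had an unadjusted p below 0.05, as did 9.93% of all genes, and 0.00562% of genes were called. None was called by the same tools under lithium either, where 3 of 6 had an unadjusted p below 0.05, as did 10.3% of all genes, and 0.0337% of genes were called.

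Averaged over the 3 treatments, Grin3a was higher in HT mice by 0.12 ± 0.019 on the log2 scale, or 8.47% (limma adjusted p = 0.00032), and 28 of 29 HT libraries lay above the WT mean. It was the only member called in that comparison by limma, edgeR or DESeq2, against 0.152% of all genes (27 genes), among which its p ranked 4. The HT mean was above the WT mean in 6 of 6 strata of treatment and sex, by 0.07 to 0.19. The median was 1811 in the 29 HT libraries and 1706 in the 27 WT libraries, and 26 HT libraries lay above the WT median. The averaged call was kept without any 1 library, at a highest limma adjusted p of 0.00096. Without the 18 libraries rich in olfactory or striatal genes the difference was 0.10 and was not called (limma adjusted p = 0.15, 38 libraries), and under fluoxetine it was 0.16 (limma adjusted p = 0.85, 12 libraries).

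The call under fluoxetine rested on single libraries. It was lost without any 1 of HT fluoxetine female 4, HT fluoxetine male 3, WT fluoxetine female 1, WT fluoxetine female 4 or WT fluoxetine male 1, at a limma adjusted p of up to 0.11, and when the 18 fluoxetine libraries were fitted alone (limma adjusted p = 0.18). The size of the difference stayed between 0.16 and 0.18 in all of these. Whether the HT and WT mice differed in their response to fluoxetine was tested as an interaction, which for Grin3a was 0.10 on the log2 scale, with a 95% interval from 0.01 to 0.19, and was not called (limma adjusted p = 0.88).

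Markers of interneurons, which include cells known for Grin3a in the mouse cortex, were read beside it. In HT against WT mice averaged over treatments 3 of 8 interneuron markers had a positive difference, their median was −0.03, and 1 was called, as lower (Npy, a neuropeptide gene, at −0.18, limma adjusted p = 0.0011). The somatostatin gene Sst was at −0.10 (limma adjusted p = 0.36). All 8 were present, at summed values of 22281 to 31385 in the HT groups and 23292 to 32207 in the WT groups. All 10 astrocyte markers and all 6 endothelial and mural markers had negative differences (medians of −0.06 and −0.10), with none called. All 11 olfactory genes (median 0.13) and 10 of 12 striatal genes (median 0.10) had positive differences, again with none called. Between the 56 libraries, the deviation of Grin3a ran against that of the astrocyte list at r = −0.37 and that of the interneuron list at r = −0.30. With the olfactory list it gave r = 0.21, with the striatal list r = −0.07 and with the cortical excitatory list r = −0.03. Without the 18 libraries Npy was still called (−0.17, limma adjusted p = 0.013). The part of these cell types and regions in the Grin3a result was not tested.

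With lithium, averaged over genotypes, Grin3a fell by 0.07 ± 0.023 on the log2 scale (limma adjusted p = 0.030), 4.63% below vehicle. It ran from 1582 to 1994 on vehicle and from 1546 to 1915 on lithium, ranges that overlapped almost fully, and 14 of 19 lithium libraries lay below the vehicle mean. The sign was the same in 4 of 4 strata of genotype and sex. The call was lost without any 1 of 6 libraries (HT vehicle female 2, HT vehicle male 4, WT lithium female 2, WT lithium male 5, WT vehicle male 1 and WT vehicle male 2), at a limma adjusted p of up to 0.066, and without the 18 libraries (limma adjusted p = 0.13). It was thus a small change close to the threshold.

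**Figure D3:**
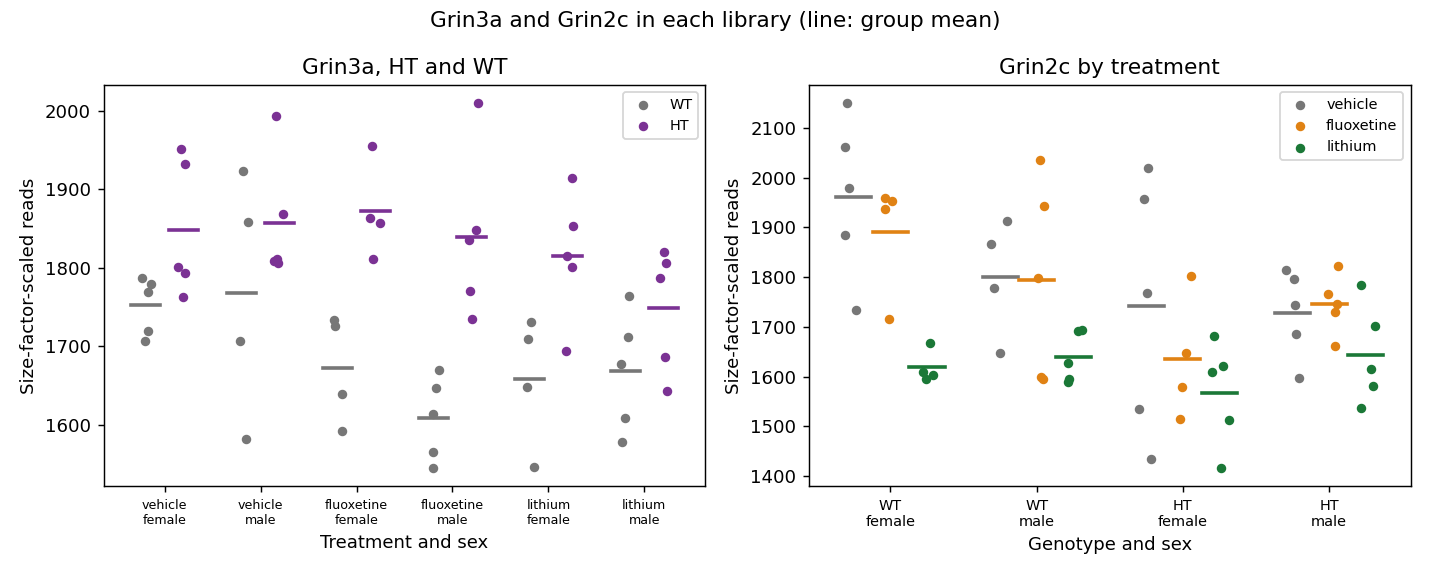
Size-factor-scaled reads of Grin3a by treatment and sex, with WT and HT libraries side by side (left), and of Grin2c by genotype and sex under the 3 treatments (right). Points are libraries, lines are group means, and each axis starts above 0; the Grin3a means are higher in HT mice in 6 of 6 strata and the Grin2c means lower with lithium in 4 of 4.

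No member was called with fluoxetine. In WT mice 5 of the 6 had a negative sign (median −0.09, against 0.0025 over all genes), 1 had an unadjusted p below 0.05, as did 10.9% of all genes, and none was called by limma, edgeR or DESeq2, where 0.146% of genes were called. The member with the smallest p was Grin3a, at −0.10 (limma adjusted p = 0.19), with 9 of 9 fluoxetine libraries below the vehicle mean. In HT mice none was called by these tools, none had an unadjusted p below 0.05 against 8.56% of all genes, and 0.045% of genes were called. Grin2a came closest, at 0.11 (limma adjusted p = 0.60), with 7 of 9 fluoxetine libraries above the vehicle mean. Averaged over genotypes, 1 member had an unadjusted p below 0.05, as did 14% of all genes, none was called by the same tools, and 0.928% of genes were called.

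Neither drug was shown to act on a subunit gene differently in HT and WT mice, or in the sexes. For the interaction of genotype with fluoxetine 2 members had an unadjusted p below 0.05 and for that with lithium 1 did. Of all genes, 5.44% and 10.9% had such a p. None of the members was called by limma, edgeR or DESeq2 in either, where limma called 0% of genes and DESeq2 called 4 genes for lithium. Between females and males averaged over groups none of the 6 was called or had an unadjusted p below 0.05, against 6.25% of genes with such a p and 0.197% called by limma, and edgeR and DESeq2 called none of the members. In the 4 tests of whether a drug effect differed between the sexes, 0% of genes were called.

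**Figure D4:**
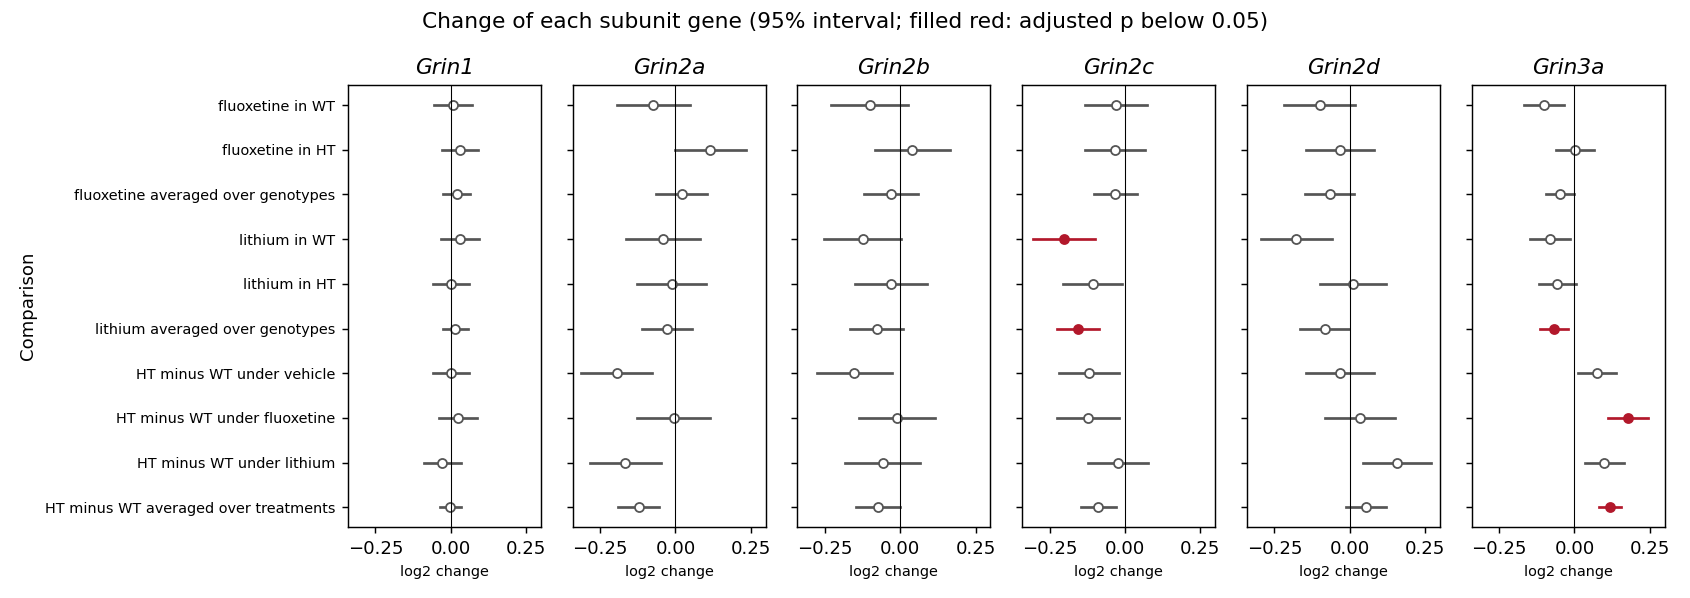
Log2 change of each subunit gene in 10 comparisons, with its 95% interval; red filled points passed an adjusted p of 0.05 in limma. Red points appear for Grin2c (lithium in WT mice and averaged) and Grin3a (lithium averaged, HT minus WT under fluoxetine and averaged), and for none of the other 4 genes.

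Within groups, libraries high in 1 subunit tended to be high or low in others. Over the deviations of the 56 libraries from their group means, 15 pairs of members were compared, and 7 had a permutation p for Pearson's r below 0.05 after Benjamini-Hochberg adjustment, 3 of them positive. The permutations treated the 56 deviations as free values and made no allowance for the group means already removed. All permutation p-values of these pairs are therefore somewhat too small, and the count of 7 may be too high. The closest pair was Grin2a and Grin2b, at r = 0.79 and Spearman's rho = 0.76, both with an adjusted permutation p of 0.00015 (each raw p was 1e-05, the smallest that the permutations can give). For that pair r was 0.75 without the 2 libraries farthest from the median of Grin2a, 0.87 in WT, 0.70 in HT and 0.78 without the 18 libraries. Grin2c and Grin2d followed each other at r = 0.52 and rho = 0.51 (raw permutation p of 4e-05 and 6e-05, adjusted p of 0.0003 and 0.00045). For this second pair r was 0.49 without the 2 farthest libraries, 0.57 in WT, 0.49 in HT and 0.43 without the 18.

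Grin2c and Grin2d ran against Grin2a. Grin2a with Grin2c gave r = −0.48 and rho = −0.46, and with Grin2d r = −0.49 and rho = −0.45 (adjusted permutation p = 0.00071 for each r and 0.0019 for each rho). The raw permutation p for r was 0.00019 with Grin2c and 0.00015 with Grin2d, and for rho 0.00038 and 0.00055. Without the 2 farthest libraries the values of r were −0.41 and −0.40, and without the 18 libraries −0.52 and −0.51. They were −0.67 and −0.63 in WT and nearer to 0, −0.29 and −0.37, in HT mice, a difference that was not tested. Grin2b with Grin2c gave r = −0.46 and rho = −0.44 (raw permutation p of 0.00033 and 0.00065, adjusted p of 0.00099 and 0.0019), with −0.41 without the 2 farthest libraries, −0.77 in WT, −0.21 in HT and −0.51 without the 18. Grin3a was tied more loosely to Grin2b (r = 0.33, rho = 0.37, raw permutation p of 0.013 and 0.0054, adjusted p of 0.031 and 0.013). With Grin2c it gave r = −0.32 and rho = −0.31 (raw permutation p of 0.018 and 0.020, adjusted p of 0.038 and 0.043). Without the 2 farthest libraries these were 0.36 and −0.25, in WT 0.13 and −0.26, in HT 0.54 and −0.37, and without the 18 libraries 0.47 and −0.28. The calls of Grin3a with Grin2b and with Grin2c were the weakest. Whether they hold once the removed group means are allowed for was not tested. The 8 pairs not called include all 5 with Grin1. Libraries of this tissue differ in their content of neighbouring regions and in depth, which all genes of a library share. The values are already divided by size factors, and the part of region content or depth in these pairs was not tested.

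**Figure D5:**
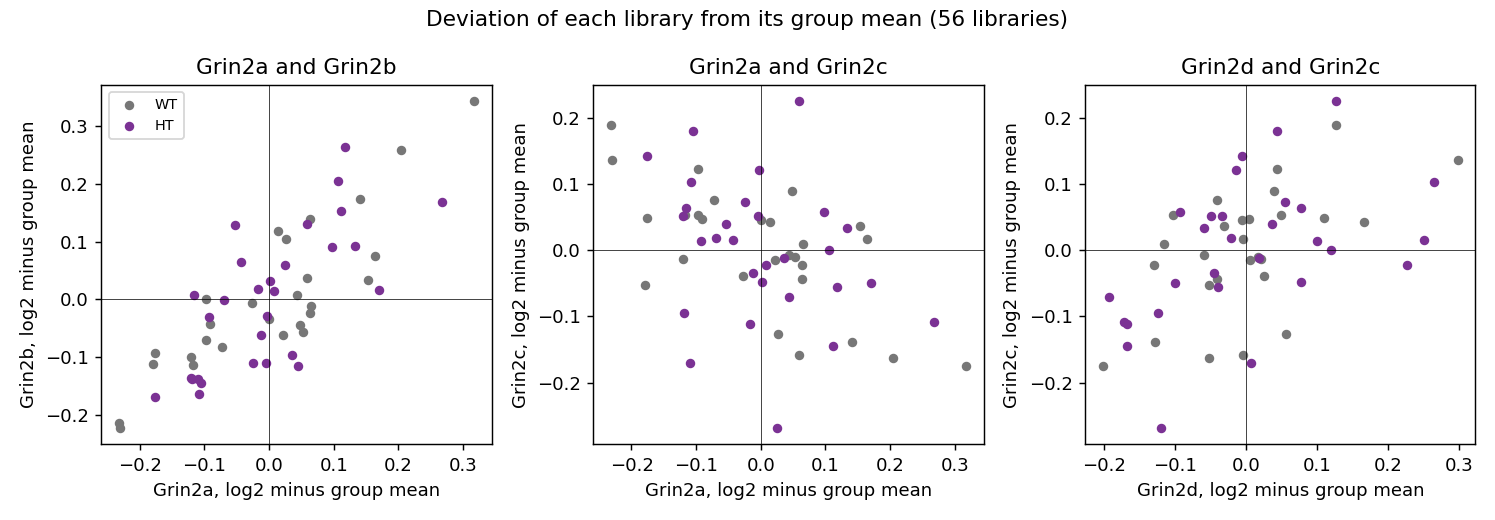
Deviation of each of the 56 libraries from its group mean, in log2 units, for Grin2a with Grin2b (left), Grin2a with Grin2c (middle) and Grin2d with Grin2c (right). Grey points are WT and purple points HT libraries; the first pair rises along a line (r = 0.79) and the middle pair falls (r = −0.48).

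The genes whose deviations were most like those of each member were found among 12818 named genes with a mean of at least 50, as a description over the 56 libraries. For Grin1 they were Dnm1, which encodes the vesicle-pinching GTPase dynamin 1 (r = 0.94), the ubiquitin-conjugating enzyme gene Ube2o (0.92) and Ap2a1, a subunit of the clathrin adaptor AP-2 (0.91). For Grin2a they were the palmitoyltransferase gene Zdhhc21 (0.82), Arfgef3 (0.81) and Arhgap20 (0.81), and for Grin2b the receptor phosphatase gene Ptprt (0.84), Arfgef3 again (0.84) and Sptbn1, a spectrin gene (0.82). For Grin2c they were Ctdsp1 (0.78), Mtss1l (0.76) and Pdlim4 (0.73), and for Grin2d the receptor-binding scaffold gene Grip2 (0.75), the semaphorin gene Sema4g (0.73) and Fam20c, a kinase of secreted proteins (0.73). For Grin3a the likeness was lower, at 0.58 for Gnl3l, 0.56 for the calcium pump gene Atp2b4 and 0.55 for Zcchc18. Across libraries Grin1 followed the list of cortical excitatory markers (r = 0.79) and ran against the olfactory list (r = −0.67).

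Genes that act with NMDA receptors were read from lists of 53 genes, of which 51 were tested. They covered the supply of co-agonists, scaffolds, trafficking, kinases and phosphatases, calcium signalling and transcriptional regulators. None of the 51 was called by limma between HT and WT mice or between fluoxetine and vehicle. Averaged over treatments, 6 of 51 had an unadjusted p below 0.05 for genotype, as did 8.08% of all genes, and averaged over genotypes, 10 did for fluoxetine, as did 14% of all genes. With lithium in WT mice 2 of 51 were higher and none lower, both from the list of 8 trafficking and auxiliary genes, where 3.84% of all genes were called higher, and the median of all 51 was 0.03. They were Ephb2, a receptor that clusters NMDA receptors (0.21, limma adjusted p = 0.027, above the vehicle mean in 7 of 9 libraries), and Nsf, an ATPase of membrane fusion (0.13, limma adjusted p = 0.029, 9 of 9). With lithium in HT mice none was higher and 6 were lower, with a median of 0.00015, where 4.13% of all genes were called lower. They include Lin7b, of the complex that carries GluN2B along dendrites (−0.21, limma adjusted p = 0.024), Dlg4, which encodes the scaffold PSD-95 (−0.09, 0.027), and Calm2, which encodes the calcium sensor calmodulin (−0.09, 0.040). Each of these 3 lay below the vehicle mean in 9 or 10 of 10 lithium libraries.

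Averaged over genotypes, lithium left 4 companions higher and 2 lower of 51. The higher ones were the kinase gene Ptk2b (0.10, limma adjusted p = 0.0047), Nsf (0.10, 0.0061), the Ras activator gene Rasgrf1 (0.07, 0.023) and Ephb2 (0.12, 0.037), and the lower ones were Lin7b (−0.15, 0.013) and the scaffold gene Dlg2 (−0.10, 0.016). Ephb2 had the direction of its change in 13 of 19 lithium libraries and the other 5 had theirs in 16 to 18. Of all genes, 9.31% were called higher and 6.85% lower. Against fluoxetine, lithium had 1 of 51 companions higher and 2 lower. The higher one was Rcor1, a corepressor gene (0.10, limma adjusted p = 0.028), and the lower ones include Calm2 (−0.09, 0.0074), where 3.84% of all genes were called higher and 2.67% lower. Rcor1 had its direction in 17 and Calm2 in 18 of 19 lithium libraries. The co-agonist list, with genes of serine and glycine synthesis and transport, had 1 call among its 7 tested genes in these lithium comparisons, the serine-making phosphatase gene Psph in HT mice (−0.11, limma adjusted p = 0.047).

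Several of these companion calls were lost, and a few others gained, without the 18 libraries rich in olfactory or striatal genes. This look at the companions and markers was added after the data were seen. For lithium in WT mice 1 of the 2 was still called, Ephb2, while Nsf was not (limma adjusted p = 0.094). For lithium in HT mice 2 of the 6 were still called, Dlg4 and Lin7b, while Calm2 (0.060) and Psph (0.56) were not. Averaged over genotypes 3 of the 6 were still called, Lin7b, Nsf and Ptk2b, and Dlg2 (0.071), Ephb2 (0.062) and Rasgrf1 (0.19) were not. Against fluoxetine 2 of the 3 were still called, Calm2 among them, and Rcor1 was not (0.088). With the calls gained, 3 companions were called without the 18 libraries for lithium in HT mice and 4 against fluoxetine. Among those gained against fluoxetine was Lin7b (−0.13, limma adjusted p = 0.026, against 0.32 with all libraries).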

How the data were processed

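RNA-seq values of prefrontal cortex from 56 mice were used, from TruSeq Stranded mRNA libraries (per the labels' protocols). The submitters' processing notes name Salmon 0.11.2, R 3.6.0, DESeq2 1.19.11 and GRCm38 and give them no role. The deposited values are a signal that the authors made by dividing read counts by a size factor for each library. The values showed this themselves, as they are given in steps that differ between libraries. Of the lower values of each library, 100% came out as whole reads, within 0.01 reads, and higher values were not checked. The size factors ran from 0.818 to 1.23. For 3 libraries with a step near 1 the check could not apply. No libraries were identical (r of 0.977 to 0.989 between them).

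In R 4.3.3, limma 3.58.1 (trend and robust settings) was fitted to log2(value + 1) of 17778 genes over 12 groups of genotype, treatment and sex, all 56 libraries sharing 1 estimate of the spread. Contrasts weighted the sexes equally, and averaged contrasts weighted the treatments or genotypes equally. A call means an adjusted p below 0.05, with Benjamini-Hochberg adjustment over all genes tested in that comparison, and changes are on the log2(value + 1) scale. edgeR 4.0.16 (quasi-likelihood) and DESeq2 1.42.0 were run on the recovered reads. For lithium averaged over genotypes they called 2834 and 2895 genes, against 2872 with limma, and for genotype averaged over treatments 29 and 49 genes, against 27. The limma code was tested on simulated data. Correlations used 100000 permutations in Python 3.11.15. Lengths and sequences are from GENCODE vM21.

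Every member was named, with Scn2a as a check, up to 4 called companions in each direction per comparison by smallest p, and the 3 most alike genes per member. A result of the companion lists that the rule would name is not reported here, and Psph was named outside this rule, after its value was seen. The members, the companion and marker lists and the tests were chosen with earlier results of these data known. Grin3b and the companion Dao were not analysed here. The other settings tried, and what they changed, are in the closing section.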

Additional observations from a re-analysis of the deposited data

Results flagged for a closer look

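Each member was looked at in each of the 12 groups of 4 or 5 libraries for a library standing far from the rest, by the gap to its nearest neighbour against the range of the group. Of 72 sets of values 4 were picked out, and chance alone picks out about 1 in 20. Grin2a was 6964 scaled reads in HT vehicle male 5, where the other 4 libraries of the group were 6316 to 6450. Grin2b was 22681 in WT lithium male 2, against 19801 to 20496 in the others. Grin2c was 1716 in WT fluoxetine female 3, below the other 3 at 1936 to 1960. Grin2d was 692 in HT lithium male 1, against 543 to 586, and this library was also 1 of the 18 rich in olfactory or striatal genes. No difference between groups in the effect of a drug or of genotype passed its test for a member: in 36 such tests none had a limma adjusted p below 0.05, and 6 had an unadjusted p below 0.05.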

How the results depend on the processing

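Alternatives were TMM rescaling, voom, edgeR or DESeq2 on recovered reads, no filter, pseudocounts of 0.5 and 5, only the groups compared, olfactory and striatal scores as covariates, leaving out the 18 libraries with such scores above 1, a replicate block, and leaving out each library. The member calls that changed were these. For lithium in WT mice 2 members were called with edgeR and with DESeq2 and 0 without the 18 libraries, against 1. Under fluoxetine 0 were called between HT and WT, against 1, with only the groups compared and without the 18. Without the 18 libraries 0 were called for genotype averaged, 0 for lithium minus fluoxetine and 1 for lithium averaged, against 1, 1 and 2, and only 38 libraries then entered. The genes called without the 18 were 226 for lithium in WT mice (against 1016), 561 for lithium in HT mice (1560), 1274 for lithium averaged (2872), 482 for lithium minus fluoxetine (1156), 15 for genotype averaged (27), 1 for genotype under fluoxetine (2), 10 for fluoxetine averaged (165), 0 for fluoxetine in WT mice (26) and 2 in HT mice (8). DESeq2 called 127 genes for fluoxetine in WT mice, 294 for fluoxetine averaged, 31 for genotype under vehicle (against 1), 12 under lithium (against 6), 4 for the interaction of genotype with lithium (against 0) and 49 averaged, and the fit with scores as covariates 63 for genotype averaged. Leaving out 1 library gave 1 to 2 calls for lithium in WT mice and for lithium averaged, and 0 to 1 for lithium in HT mice, lithium minus fluoxetine and genotype under fluoxetine.

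In the comparisons of each drug with vehicle and of HT with WT mice, the sign turned only for log2 changes near 0 that were not called. These turns are listed below, and their cause was not tested. Signs also turned in interactions, between lithium and fluoxetine and between the sexes, for changes that were not called and are not listed. Among them, Grin2d for the interaction of genotype with fluoxetine was 0.067 in the main fit and −0.015 at its lowest among the alternatives. With TMM, Grin3a for fluoxetine in HT mice was −0.00032, Grin1 for lithium in HT mice −0.00047 and Grin1 for genotype averaged 0.00034. Grin1 for genotype under vehicle was −0.0033 with voom, −0.0039 with edgeR and −0.0036 with DESeq2. With the scores as covariates Grin1 was 0.0075 for genotype under lithium and 0.0058 for genotype averaged. Without the 18 libraries Grin3a for fluoxetine in HT mice was −0.020, and for lithium in HT mice Grin1 was −0.0044, Grin2a 0.024, Grin2b 0.0084 and Grin2d −0.064. For genotype these were 0.025 for Grin2d under vehicle, 0.014 for Grin2a and 0.0054 for Grin2b under fluoxetine, and 0.0039 for Grin1 averaged. Leaving out 1 library, the ranges that crossed 0 were −0.011 to 0.028 (Grin1, fluoxetine in WT), −0.0080 to 0.0051 (Grin1, genotype averaged), −0.013 to 0.015 (Grin1, genotype under vehicle), −0.0077 to 0.015 (Grin1, lithium in HT), −0.0014 to 0.041 (Grin2a, fluoxetine averaged), −0.051 to 0.023 (Grin2a, genotype under fluoxetine), −0.034 to 0.0035 (Grin2a, lithium in HT), −0.039 to 0.022 (Grin2b, genotype under fluoxetine), −0.064 to 0.0050 (Grin2d, genotype under vehicle), −0.022 to 0.043 (Grin2d, lithium in HT) and −0.014 to 0.015 (Grin3a, fluoxetine in HT).

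The groups share replicate numbers, but the numbers did not pair libraries: deviations of same-numbered libraries of different groups had a median r of −0.0016, 24 of 292 pairs were above 0.1, and 11 of 56 libraries were most like 1 of their own number. With the replicate number as a block, no member call changed (Grin3a for genotype averaged was 0.12, limma adjusted p = 0.000555). In the comparisons of each drug with vehicle and of HT with WT mice 2 signs turned, to −0.00039 for Grin3a with fluoxetine in HT mice and 0.00049 for Grin1 for genotype averaged. All 6 genes were well counted, with a lowest value of 461 scaled reads (Grin2d in WT lithium female 2). The part of depth in the spread between libraries was not tested.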
